A study of Mus musculus with 2 samples.

Results

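Tnf, Il6, Osm, Lif, Csf1, Csf2, Csf3 and Il10 encode secreted cytokines of inflammation and of myeloid cell growth. The 8 genes were taken as a fixed list of symbols, and all 8 were present among the 55357 genes of both matrices. They were described in mouse colon tumours, from which single cells had been sequenced as 1 library for each of 2 genotypes. The library labelled KO came from ECM1Flox/Flox, Villin-Cre animals, in which the Villin promoter drives Cre recombinase in intestinal epithelium. The library labelled WT came from ECM1Flox/Flox animals with no Cre listed, so floxed Ecm1 alleles were common to both. The sources used here do not give age, sex, tumour model, treatment or the number of animals per library. With 1 library per genotype no difference had a replicate check, and every interval below is a 95% interval for counting error only.

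TNF, encoded by Tnf, acts through the receptors encoded by Tnfrsf1a and Tnfrsf1b and starts NF-kB signalling. Interleukin 6, oncostatin M and leukaemia inhibitory factor, the products of Il6, Osm and Lif, signal through receptor complexes that share gp130, encoded by Il6st. Csf1, Csf2 and Csf3 encode the growth factors M-CSF, GM-CSF and G-CSF, which support macrophages, several myeloid lineages and neutrophils. Interleukin 10, from Il10, restrains inflammatory cytokine production, and regulatory T cells and macrophages are known intestinal sources of it.

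After filtering, 4233 cells labelled KO and 8262 cells labelled WT remained, with medians of 10429 and 2741 unique molecular identifiers (UMIs, counts of single captured transcripts) per cell. The libraries shared 17 barcodes. Clusters were named from marker genes and merged into 11 classes, of which 7 had at least 50 cells in both libraries. Monocyte/macrophage-like cells numbered 504 and 1328 in the libraries labelled KO and WT, neutrophil-like cells 201 and 2240, epithelial-like cells 2202 and 1900, T/NK/ILC-like cells (T cells, natural killer and other innate lymphoid cells) 325 and 1393, and mast/basophil-like cells 69 and 259. Endothelial-like cells numbered 204 and 18, and fibroblast/mural-like cells 108 and 11, so these were described in the library labelled KO. Ecm1, the floxed gene, was not lower in epithelial-like cells labelled KO, with 2318 UMIs against 986 and a ratio of 1.19 once scaled to total UMIs (1.10 to 1.28), and a count over a gene does not show whether the floxed part was removed.

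Levels are given as CPM, the gene's UMIs per 1000000 UMIs of the same cells. A gene was counted as lower or higher when its CPM differed at least 2-fold between the libraries and it had at least 10 UMIs over both. Shares of cells with a UMI were compared after each cell with at least 1000 UMIs was thinned to 1000. Cells with fewer were left out of the thinned shares, 237 labelled KO and 398 labelled WT. Such a share falls with the number of transcripts per cell as well as with the number of expressing cells, so it does not tell these apart.

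**Figure D1:**
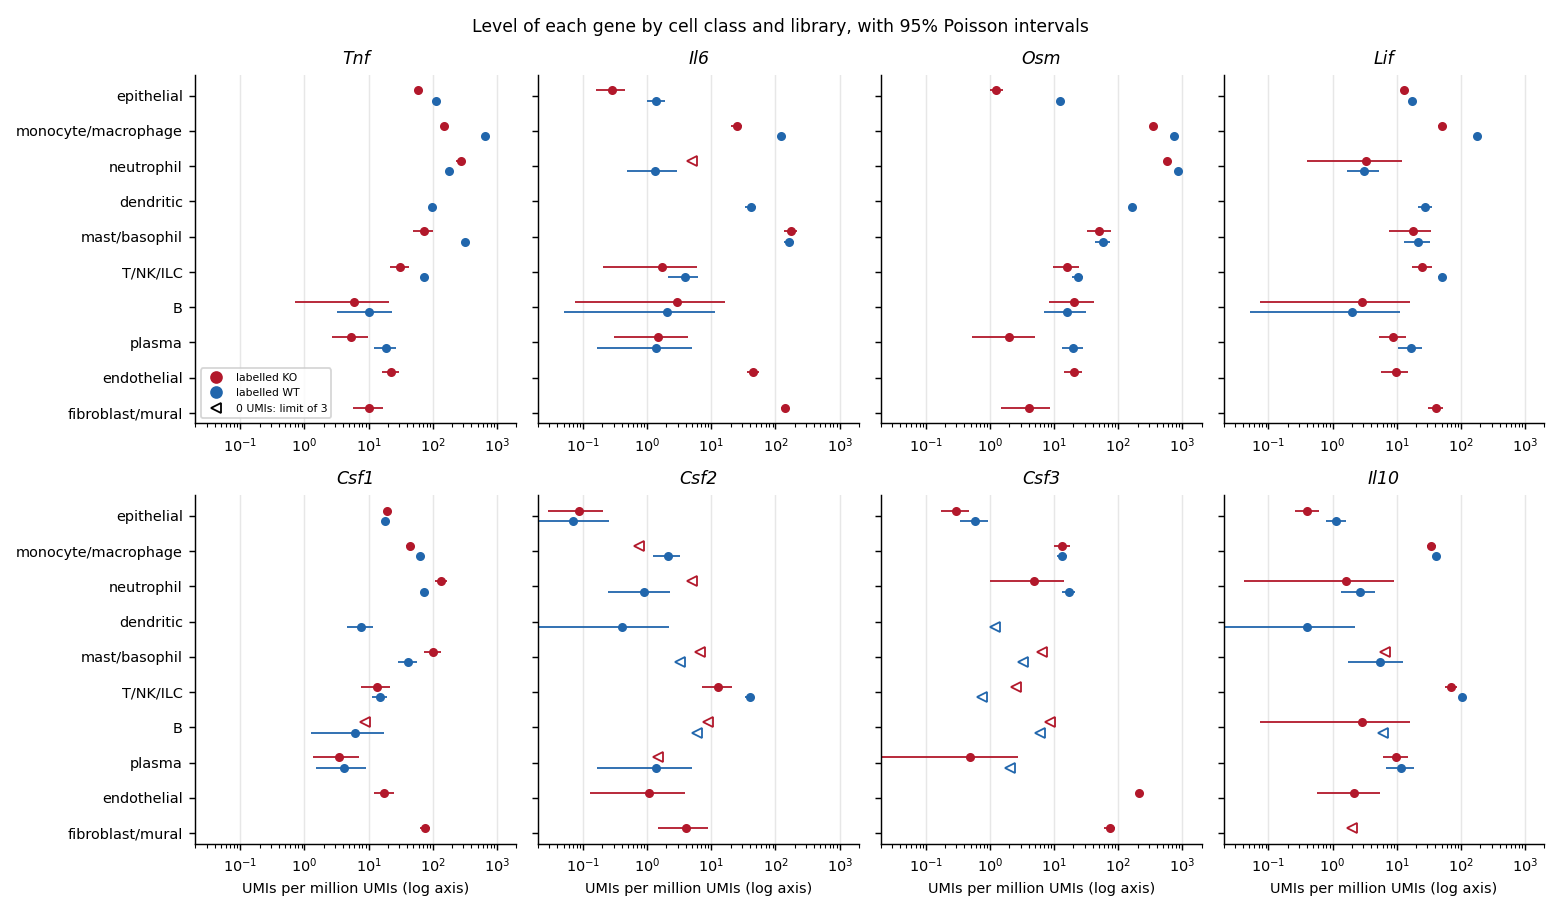
Level of each of the 8 genes (x axis, CPM, log scale) in each cell class (y axis), red for the library labelled KO and blue for that labelled WT, with 95% Poisson intervals. Open triangles mark 0 UMIs, drawn at the level of 3 UMIs, and a class with fewer than 50 cells in a library is left out. Tnf, Il6, Lif and Osm sit to the left in red in monocyte/macrophage-like cells, whereas Tnf and Csf1 sit to the right in red in neutrophil-like cells.

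In monocyte/macrophage-like cells, 5 of the 8 genes were at least 2-fold lower in the library labelled KO, namely Tnf, Il6, Lif, Osm and Csf2, and none was higher. Of all genes measured in this class, 10.8% were lower by the same fold and 8.47% were higher. The median log2 ratio was -1.27 over the 8 genes and -0.03 over all genes measured. The class held 53.1% of all Tnf UMIs, 77.0% of all Il6 UMIs and 65.3% of all Lif UMIs of the library labelled WT.

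Tnf was at 148 CPM in monocyte/macrophage-like cells labelled KO (605 UMIs, interval 137 to 161) and at 655 CPM in those labelled WT (5671 UMIs, 638 to 672). That is a 4.42-fold lower level (interval of the fold 4.06 to 4.81). After thinning, 12.8% of cells labelled KO and 33.6% of those labelled WT had a Tnf UMI. Il6 was at 24.7 CPM (101 UMIs) against 123 CPM (1066 UMIs), 4.97-fold lower (4.05 to 6.16). Thinned shares for Il6 were 2.34% and 9.99%, while neutrophil-like cells, taken as cells with little Il6, gave 0% and 0.187%. Median depths were 6925.5 and 5190.5 UMIs in the former class and 2843 and 1912 in the latter. Lif was at 50.5 CPM (206 UMIs) against 178 CPM (1539 UMIs), 3.52-fold lower (3.04 to 4.09), and Osm at 354 CPM (1443 UMIs) against 728 CPM (6310 UMIs), 2.06-fold lower (1.95 to 2.18). Osm lay next to the 2-fold limit and passed it no longer when clusters were weighted equally (ratio 0.575). All 18 Csf2 UMIs of this class came from 5 cells labelled WT, and with 0 UMIs the library labelled KO allowed up to 0.735 CPM.

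The remaining genes of the list did not share this difference in the class. Csf3 was level at 13.5 and 13.4 CPM (ratio 1.01, 0.716 to 1.40). Il10 was at 34.5 and 40.6 CPM (ratio 0.850, 0.694 to 1.04), but the ratio was 0.524 without the 5 cells richest in Il10 in each library. Csf1 was at 43.9 and 62.5 CPM (ratio 0.702, 0.590 to 0.833), lower in the library labelled KO but within 2-fold. Markers of other cells moved too: the summed level of 10 epithelial markers in this class was 652 CPM labelled KO and 219 CPM labelled WT, and that of 10 neutrophil markers 996 and 2265 CPM, with every marker of both lists detected. The part of such transcripts in the ratios was not tested.

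The class was made mainly of a monocyte-like cluster led by Chil3, Arg1 and F10 (cluster 9, 236 and 947 cells) and a macrophage-like cluster rich in C1q genes (cluster 7, 255 and 381 cells). Their proportions differed between the libraries, so the class ratios above mix clusters present in unequal numbers. Lif was 2.73-fold lower in cluster 9 and 2.71-fold lower in cluster 7, each less than in the whole class. In cluster 9, 7 of the 8 genes were at least 2-fold lower in the library labelled KO and none was higher, where 15.6% and 3.85% of all genes measured were lower and higher. Among the 7, Csf2 had 0 UMIs labelled KO, counted as 3, and 18 labelled WT. Osm was next to the limit, at 2.01-fold lower (1.88 to 2.16). With a minimum of 50 UMIs, 6 of 7 measured genes were lower, beside 9.84% of all genes. Tnf was at 163 CPM there (267 UMIs) against 829 CPM (4000 UMIs), and the thinned share of cells was 10.3% against 37.3%. Il6 was at 53.2 against 191 CPM, Osm at 572 against 1153 CPM, and Lif at 110 against 301 CPM. Il10 was at 22.6 against 50.6 CPM and Csf1 at 9.17 against 22.8 CPM, ratios of 0.447 and 0.402 that were 0.138 and 0.213 without the 5 richest cells of each library. Csf3, on 49 and 113 UMIs, was the exception (ratio 1.28, 0.896 to 1.80), and its ratio was 0.825 without the 5 richest cells.

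In cluster 7, 3 of 6 measured genes were lower, namely Tnf, Il6 and Lif, and none was higher, where 8.93% and 7.93% of all genes were lower and higher. Tnf was at 134 against 435 CPM (ratio 0.307, 0.271 to 0.346), Il6 at 5.45 against 37.8 CPM and Lif at 8.38 against 22.7 CPM. The ratios of 0.144 for Il6 and 0.370 for Lif were 0.0446 and 0.185 without the 5 richest cells. Osm was at 202 and 195 CPM (ratio 1.04, 0.923 to 1.16), so of these clusters only cluster 9 had lower Osm. Il10 was at 43.1 CPM labelled KO and 28.1 CPM labelled WT (ratio 1.53, 1.16 to 2.03), the opposite direction to cluster 9, but 66.0% of the KO-labelled UMIs came from 5 cells and the ratio was 0.923 without the 5 richest cells of each library. Neutrophil markers summed to 472 CPM labelled KO and 2452 CPM labelled WT in cluster 7, and epithelial markers to 865 and 196 CPM.

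**Figure D2:**
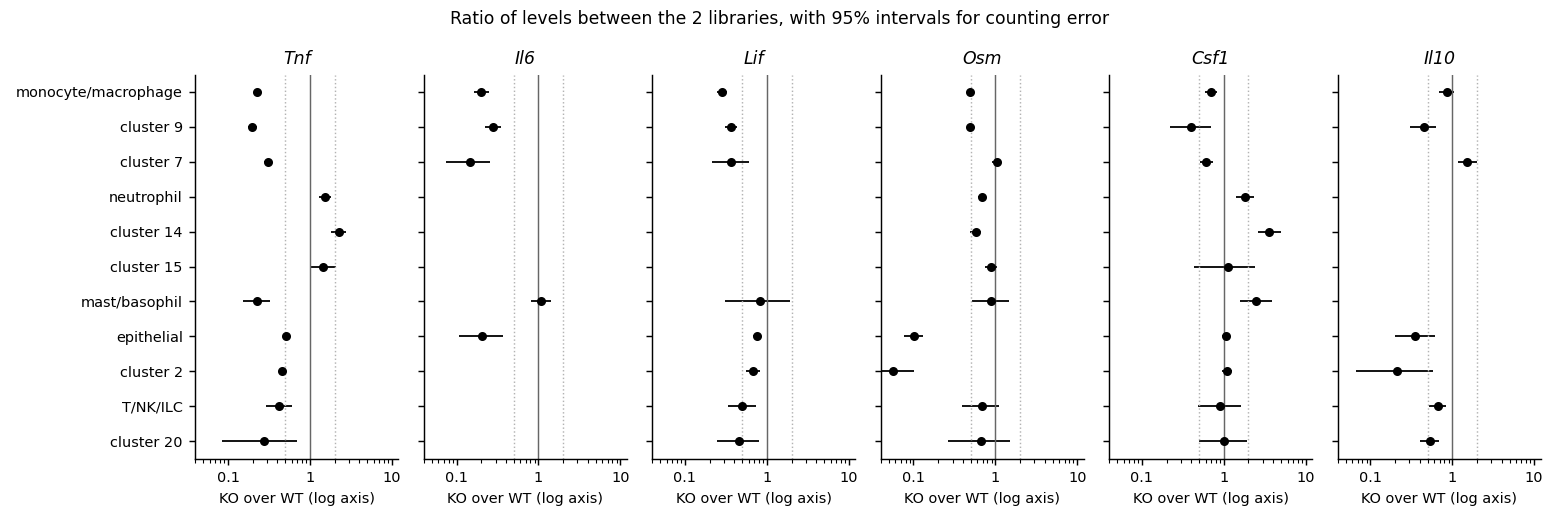
Ratio of the level in the library labelled KO to that labelled WT (x axis, log scale) for 6 genes in the main classes and some of their clusters (y axis), with 95% intervals for counting error. The solid line marks a ratio of 1 and the dotted lines 2-fold in each direction. Tnf, Il6 and Lif lie left of 0.5 in clusters 9 and 7, and Tnf and Csf1 lie right of 2 in cluster 14.

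Tnf, Il6 and Lif were thus at least 2-fold lower in both the monocyte-like and the macrophage-like cluster, and their proximal promoters are shown because these genes moved together. The sequences are the 250 bases before the start of each gene from RefSeq (GRCm38.p6, a different build from that of the counts), read 5′ to 3′ on the gene's strand. The table of promoters matched Tnf, Il6, Lif, Csf1 and Csf2 and did not match Osm, Csf3 and Il10. Capitals mark matches on either strand to the NF-kB pattern GGGNNTTTC, the AP-1 pattern TGANTCA and the C/EBP pattern TTNNGCAA, which did not overlap each other here.
Tnf (chr17:35202008-35202257, minus strand): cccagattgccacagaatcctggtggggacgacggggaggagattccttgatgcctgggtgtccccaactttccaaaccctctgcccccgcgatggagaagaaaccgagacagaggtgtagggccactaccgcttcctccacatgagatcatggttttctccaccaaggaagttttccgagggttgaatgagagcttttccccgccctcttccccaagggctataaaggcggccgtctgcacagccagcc
Il6 (chr5:30012864-30013113, plus strand): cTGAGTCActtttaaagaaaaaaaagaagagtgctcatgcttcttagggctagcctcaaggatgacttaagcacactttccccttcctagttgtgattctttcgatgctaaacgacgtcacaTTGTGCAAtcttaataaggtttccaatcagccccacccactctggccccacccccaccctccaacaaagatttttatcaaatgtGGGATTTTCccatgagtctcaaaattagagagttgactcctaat
Lif (chr11:4257318-4257567, plus strand): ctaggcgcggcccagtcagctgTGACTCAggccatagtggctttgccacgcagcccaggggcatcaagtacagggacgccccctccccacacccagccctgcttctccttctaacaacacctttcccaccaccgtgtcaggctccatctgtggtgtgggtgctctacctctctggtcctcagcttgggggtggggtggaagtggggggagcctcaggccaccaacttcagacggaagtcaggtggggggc
The Il6 window held GGGATTTTC from 44 to 36 bases before the start, TTGTGCAA from 128 to 121 and TGAGTCA from 249 to 243. The Lif window held TGACTCA from 228 to 222 bases before the start. None of the 3 patterns was in the Tnf window, which says only that these letters are absent there. Of 32536 mouse promoters of the same length, 3.71% held the NF-kB pattern, 6.73% the AP-1 pattern and 9.57% the C/EBP pattern. Of the genes not shown, Csf1 held an NF-kB match from 153 to 145 bases before its start and Csf2 a C/EBP match from 145 to 138. A match is a description of letters, and the files hold no binding data.

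Genes commonly induced with these cytokines did not move as a block in the monocyte-like cluster 9. Of 11 measured genes of that list, 5 were at least 2-fold lower in the library labelled KO (Il23a, Ptgs2, Nfkbiz, Tnfaip3 and Nos2) and none was higher, beside 15.6% and 3.85% of all genes. Il23a, a subunit of interleukin 23, was at 88.1 against 271 CPM, Ptgs2, the inducible cyclooxygenase, at 955 against 2187 CPM, and Tnfaip3, a feedback inhibitor of NF-kB, at 232 against 814 CPM. Il1b was at 10107 against 8071 CPM, Il1a at 929 against 871 CPM, the chemokine gene Ccl3 at 650 against 509 CPM and Nfkbia at 3499 against 3351 CPM. Il1b and Il1a were therefore not lower in the cluster in which Tnf, Il6 and Lif were.

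Among 12 genes listed as regulators of cytokine mRNA decay, 3 were lower in cluster 9 and none was higher, beside 15.6% and 3.85% of all genes there. The list included Tnip1, which acts in NF-kB signalling and is not a regulator of mRNA decay. Zfp36, which encodes tristetraprolin, an RNA-binding protein that promotes the decay of Tnf mRNA, was at 580 against 2296 CPM. Zc3h12c was at 19.6 against 47.9 CPM and Khsrp, which encodes a protein that binds AU-rich elements, at 30.6 against 71.1 CPM. Zc3h12a, which encodes regnase-1, did not pass 2-fold, at 137 against 204 CPM. In cluster 7, none of the 12 was lower or higher by 2-fold, beside 8.93% and 7.93% of all genes. Zfp36 was at 906 against 1382 CPM there.

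Immediate early genes, listed together with the heat shock genes Hspa1a and Hspa1b, were lower beside the cytokines in cluster 9. Tissue dissociation can also induce such genes. Of the 12 genes of this immediate early and heat shock list, 10 were at least 2-fold lower and none was higher, beside 15.6% and 3.85% of all genes. Their median log2 ratio was -1.95, against -0.18 for all genes. Fos was at 488 against 3177 CPM there, Egr1 at 87.5 against 438 CPM and Dusp1 at 628 against 2990 CPM. In cluster 7, 2 of 12 were lower, Egr1 and Dusp1, beside 8.93% of all genes. The median there was -0.32 against -0.02 for all genes. The part of handling of the tissue in these differences, and in those of the cytokines in both clusters, was not tested.

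In neutrophil-like cells Tnf and Csf1 had ratios above 1, though short of 2-fold. Tnf was at 271 CPM in those labelled KO (165 UMIs, 231 to 316) and 176 CPM in those labelled WT (793 UMIs, 164 to 189), a ratio of 1.54 (1.30 to 1.83). Csf1 was at 135 CPM (82 UMIs) against 73.4 CPM (331 UMIs), a ratio of 1.84 (1.42 to 2.35). Osm, at 584 against 848 CPM, went the other way (ratio 0.688, 0.616 to 0.768). Of 6 measured genes, 1 was at least 2-fold lower and none was at least 2-fold higher, beside 14.3% and 10.5% of all genes. The lower one was Csf3, on 3 and 77 UMIs (ratio 0.289, 0.0583 to 0.876).

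The neutrophil-like class mixed clusters present in unequal numbers. In cluster 14, led by G0s2 and Cxcr2 (133 and 1024 cells), Tnf was at 334 against 149 CPM (ratio 2.24, 1.79 to 2.78, and 1.93 without the 5 richest cells) and Csf1 at 183 against 50.7 CPM (ratio 3.60, 2.59 to 4.98). In cluster 15, led by Ngp and Retnlg (52 and 957 cells), Tnf was at 175 against 119 CPM (ratio 1.46, 1.01 to 2.06). Cluster 26, led by Fnip2, Hmox1 and Il36g, had 16 cells labelled KO and 259 labelled WT. The latter held Tnf at 615 CPM (541 to 697) and Csf1 at 429 CPM (367 to 499), above the other neutrophil-like clusters, and 11.2% of all Csf1 UMIs of that library. In the 16 cells labelled KO there were 8 Tnf UMIs (ratio 0.377, 0.161 to 0.755), so the direction in cluster 26 was opposite to that in clusters 14 and 15. Fos was at 541 against 3561 CPM and Dusp1 at 1794 against 5449 CPM in the whole class. Of the 12 genes of the immediate early and heat shock list, 5 were at least 2-fold lower, beside 14.3% of all genes. Their part in the Tnf ratios was not tested.

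In mast/basophil-like cells, Tnf was lower and Il6 was not. Tnf was at 72.6 CPM (33 UMIs) in those labelled KO and 317 CPM (294 UMIs) in those labelled WT, 4.37-fold lower (3.05 to 6.47), with a ratio of 0.229 that was 0.142 without the 5 richest cells. Il6 was at 174 CPM (79 UMIs, 138 to 216) and 163 CPM (151 UMIs, 138 to 191), but 73.4% of the KO-labelled UMIs came from 5 of the 69 cells, and the ratio of 1.07 was 0.486 without the 5 richest cells of each library. Of 5 measured genes, Tnf was lower and Csf1 higher, beside 14.3% and 21.6% of all genes. The higher Csf1, at 101 against 41.0 CPM, rested on few cells: 93.5% of its KO-labelled UMIs came from 5 cells, and without the 5 richest cells of each library the ratio of 2.47 became 0.318. Epithelial markers summed to 7018 CPM labelled KO and 405 CPM labelled WT in this class, with all 10 detected in each. Of the immediate early and heat shock list, Fos was at 1317 against 3771 CPM and Dusp1 at 493 against 1972 CPM. Atf3, at 677 against 163 CPM, and Ier2, at 666 against 392 CPM, were higher labelled KO. Their part in the Tnf ratio was not tested.

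Epithelial-like cells held most Tnf UMIs of the library labelled KO, 77.4%, and 30.6% of those of the library labelled WT. They also held 56885752 of the 69998781 UMIs of all genes labelled KO and 28781900 of the 52379586 labelled WT. Over all cells Tnf was at 61.2 and 204 CPM, above the epithelial levels in both libraries. Their Tnf was at 58.2 CPM (3313 UMIs, 56.3 to 60.3) and 113 CPM (3266 UMIs, 110 to 117), 1.95-fold lower in the library labelled KO (1.86 to 2.05), just short of 2-fold. A Tnf UMI was found in 45.3% and 46.4% of epithelial-like cells at full depth, and in 6.13% and 11.0% after thinning. B-like cells gave thinned shares of 0.752% and 0.397%. Tnf was broadly distributed, since 5 cells held 3.29% and 4.04% of the epithelial UMIs.

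Epithelial Tnf stood in another ratio to Osm than in the leukocytes with the most Osm. Epithelial-like cells held 46.0 Tnf UMIs per Osm UMI when labelled KO and 9.10 when labelled WT. Monocyte/macrophage-like cells held 0.419 and 0.899, and neutrophil-like cells 0.465 and 0.207. Other leukocytes lay nearer the epithelial values, with 1.43 and 5.55 in mast/basophil-like cells and 1.95 and 3.12 in T/NK/ILC-like cells. Epithelial Osm itself was at 1.27 against 12.5 CPM (ratio 0.101, and 0.164 with equal weight per cluster), and Il6 and Il10 were at 0.281 against 1.39 and 0.404 against 1.15 CPM. These 3 made up the 3 of 7 measured genes that were at least 2-fold lower, none was higher, and 13.3% and 4.67% of all genes were. Summed neutrophil markers in the same cells were at 125 and 916 CPM, and monocyte markers at 875 and 1386 CPM, all of both lists detected, and their part in the low counts was not tested. The low Il10 also depended on weighting, with a ratio of 1.10 when each cell counted equally.

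Across the epithelial-like clusters the Tnf ratio ranged from 0.277 to 0.910, apart from goblet-like cluster 3, which had 60 and 5 Tnf UMIs (ratio 2.12, 0.860 to 6.77). The cluster led by Pnliprp2, Ptn and Wif1 (cluster 2, 757 and 486 cells) had 70.9 against 156 CPM, the one led by S100g, Tgm4 and Gkn3 (cluster 4) 52.2 against 115 CPM, and the dividing cells of cluster 5 had 56.0 against 110 CPM. Paneth-like cells (cluster 10) had 60.1 against 93.3 CPM (ratio 0.644, and 0.303 with each cell weighted equally), and cluster 23, led by Saa1 and Krt20, 27.5 against 99.3 CPM. Cluster 1, with Krt14 and Cxcl5 among its leading genes, had 63.1 against 69.3 CPM (ratio 0.910, 0.789 to 1.05), and cluster 0, with 34.2 against 46.1 CPM, also had an interval holding 1.

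Csf1 followed another pattern in the epithelium. It was at 19.1 CPM (18.0 to 20.3) and 18.0 CPM (16.4 to 19.6), a ratio of 1.06 (0.958 to 1.18). Cluster 2 stood above the other epithelial-like clusters in both libraries, with 726 and 329 UMIs (ratio 1.09, 0.956 to 1.25), and held 45.9% and 21.5% of all Csf1 UMIs of the libraries labelled KO and WT. Cluster 1 was at 9.52 CPM (120 UMIs) against 2.77 CPM (10 UMIs), a ratio of 3.43 (1.80 to 7.34), and of 8.71 without the 5 richest cells of each library. Dividing cells of cluster 5 were at 9.55 against 18.6 CPM, so epithelial clusters differed from each other in direction. Lif had 741 and 491 UMIs over all epithelial-like cells (ratio 0.764, 0.680 to 0.858), which held 67.3% and 20.8% of the Lif UMIs of their libraries. As for Tnf, these shares depend on how many UMIs of all genes lay in these cells.

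**Figure D3:**
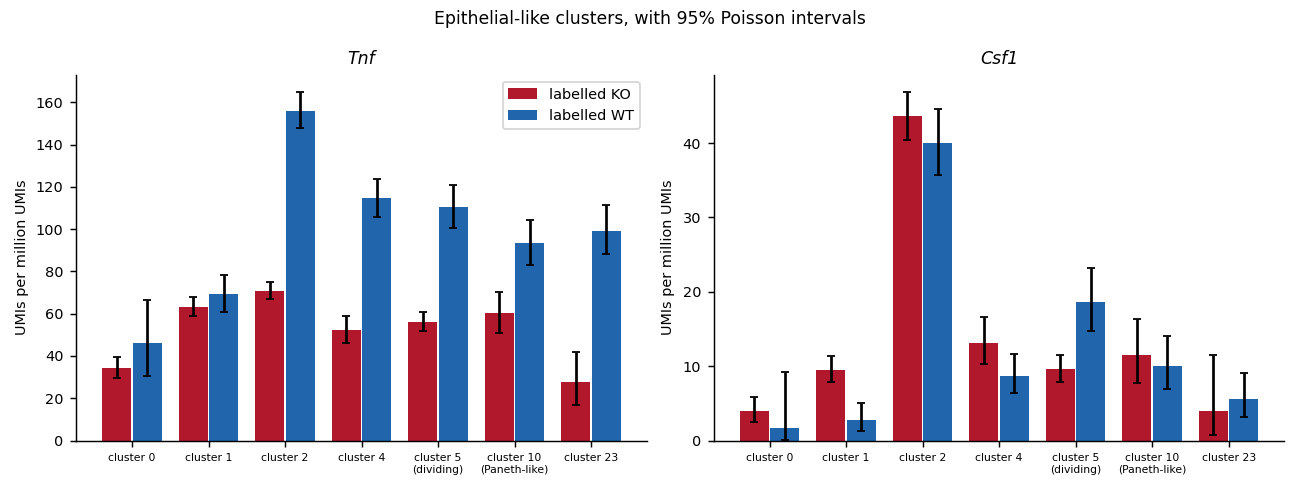
Tnf (left) and Csf1 (right) in 7 epithelial-like clusters (x axis) as CPM (y axis), red for the library labelled KO and blue for that labelled WT, with 95% Poisson intervals. The WT-labelled Tnf bar reaches 156 in cluster 2 and the KO-labelled bar 70.9, while the Csf1 intervals overlap in cluster 2.

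The lymphoid compartment was the main source of Csf2 and a main source of Il10. T/NK/ILC-like cells held 15 of the 28 Csf2 UMIs of the library labelled KO and 155 of the 183 labelled WT, at 12.6 and 39.5 CPM (ratio 0.319, 0.174 to 0.542, and 0.185 without the 5 richest cells). Csf2 came from few cells: 3.08% and 3.16% of the class had a UMI (1.27% and 1.65% after thinning), and 5 cells held 66.7% and 41.9% of the UMIs. Within the library labelled WT, cluster 25 was at 89.2 CPM (73 UMIs, 69.9 to 112), and cluster 21, led by Il17a and Trdc, at 46.4 CPM (41 UMIs, 33.3 to 62.9). Cluster 25 scored highest for NK markers, but its leading genes included the CD8 T cell gene Cd8a, so it is given by number. Cluster 21 scored highest for innate lymphoid markers, but its leading genes included the gamma-delta T cell genes Trdc, Trdv4 and Trgc1, so it too is given by number. A CD8 T-like subcluster of 21 and 82 cells had 1 Csf2 UMI in each library. The Foxp3 cluster 20 was at 18.2 CPM (23 UMIs, 11.5 to 27.3). Among subclusters, an NK-like one with Gzmc and Xcl1 among its leading genes reached 196 CPM on 54 UMIs in 69 cells, and a gamma-delta T-like one 53.8 CPM on 39 UMIs.

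Il10 was at 69.6 CPM (83 UMIs) in T/NK/ILC-like cells labelled KO and 105 CPM (412 UMIs) in those labelled WT (ratio 0.663, 0.517 to 0.841). The Foxp3 cluster held most of these, with 73 and 348 UMIs, at 146 CPM (115 to 184) and 275 CPM (247 to 306). In it 17.3% and 15.8% of cells had an Il10 UMI at full depth (medians of 3121 and 1987 UMIs), and 9.23% and 11.3% after thinning. A regulatory T-like subcluster led by Fabp5 (32 and 70 cells) had Il10 at 249 CPM (44 UMIs) and 954 CPM (226 UMIs), with a UMI in 56.2% and 48.6% of cells at full depth (medians of 5264 and 2826 UMIs). After thinning, the order of these shares was reversed, at 28.1% and 40.0%, with overlapping intervals (13.7% to 46.7% and 28.5% to 52.4%). A further regulatory T-like subcluster, with Foxp3 among its leading genes, had 334 CPM (31 UMIs, all in 5 cells) and 245 CPM (118 UMIs), with thinned shares of 9.38% and 11.4%. The level was thus lower labelled KO in the Fabp5-led subcluster, with a ratio of 0.261 (0.184 to 0.361). In the other the ratio was 1.36 (0.887 to 2.04), an interval that held 1, on 5 cells labelled KO. A subcluster that scored highest for regulatory T markers but was left unnamed (62 and 201 cells) had 0 and 23 Il10 UMIs. Its ratio could reach 0.373. Over the whole Foxp3 cluster the ratio was 0.531 (0.407 to 0.686), and 0.348 without the 5 richest cells of each library.

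Tnf was also lower in T/NK/ILC-like cells labelled KO, and Lif lay just short of 2-fold. Tnf was at 31.0 against 73.2 CPM (37 and 287 UMIs, ratio 0.424, 0.293 to 0.599), and Lif was at 25.2 CPM labelled KO (30 and 196 UMIs, ratio 0.504, 0.331 to 0.742). Of 7 measured genes in the class, 3 were at least 2-fold lower (Tnf, Il6 and Csf2) and none was higher, beside 13.9% and 4.20% of all genes. Il6 there was on 2 and 15 UMIs. The Tnf ratio was 0.276 without the 5 richest cells and 0.261 with no doublet removal. Of the 12 genes of the immediate early and heat shock list, 5 were lower, beside 13.9% of all genes. Fos was at 609 against 1684 CPM. Summed neutrophil markers were at 206 and 578 CPM in the class, with Cxcr2 and Trem1 at 0 in the library labelled KO.

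Stromal cells carried most Csf3 and much of the Il6 of the library labelled KO. Endothelial-like cells held 399 Csf3 UMIs, 67.4% of the library's total, at 212 CPM (192 to 234), and fibroblast/mural-like cells another 111 UMIs, at 74.2 CPM (61.0 to 89.3). These transcripts lay in few cells: 17.2% of endothelial-like cells had a Csf3 UMI, 5 cells held 57.6% of the UMIs, and the level without them was 93.8 CPM. In fibroblast/mural-like cells 5 cells held 87.4%, and the level without them was 10.1 CPM. The 18 endothelial-like cells labelled WT had 0 Csf3 UMIs, which allows up to 24.9 CPM.

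Fibroblast/mural-like cells labelled KO held 213 Il6 UMIs, 41.3% of that library's total, at 142 CPM (124 to 163), and endothelial-like cells 85 UMIs, at 45.2 CPM (36.1 to 55.9). Without the 5 richest cells these levels were 67.4 and 27.2 CPM. The 11 fibroblast/mural-like cells labelled WT had no Il6 UMI, which allows up to 31.1 CPM. Csf1 and Lif were at 76.2 and 40.8 CPM in fibroblast/mural-like cells labelled KO, and at 53.7 and 18.5 CPM without the 5 richest cells.

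**Figure D4:**
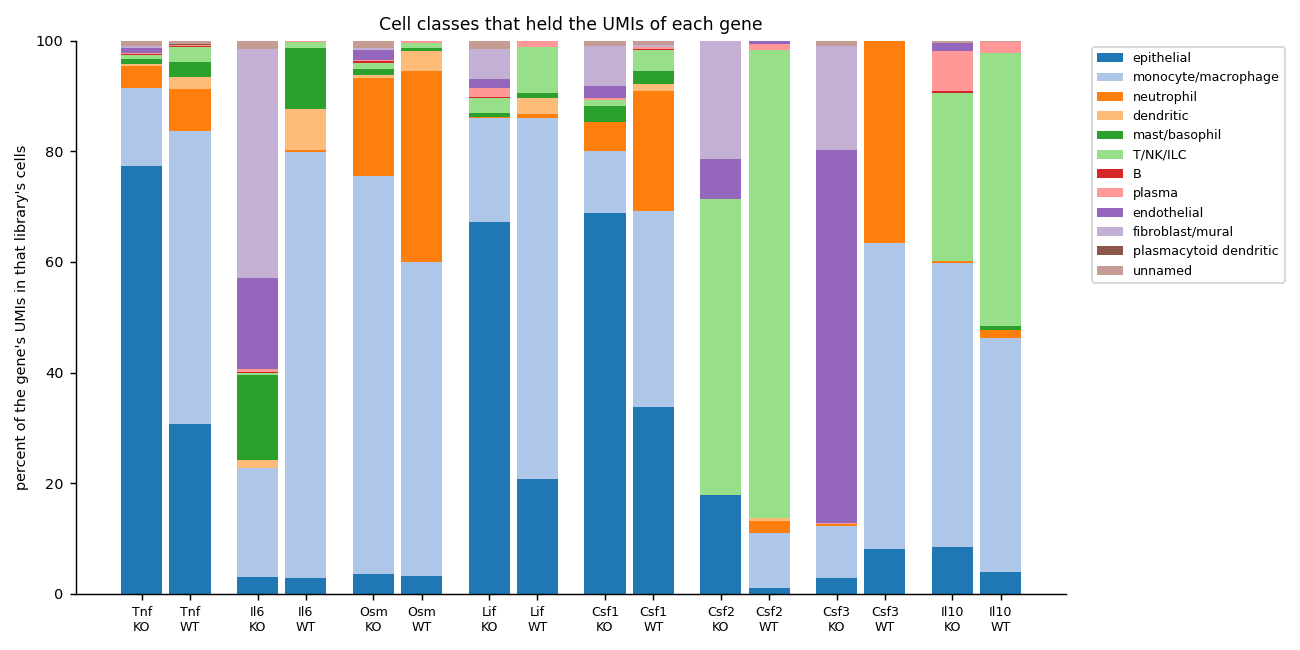
Percent of each gene's UMIs (y axis) that lay in each cell class (colours), for each gene in the libraries labelled KO and WT (x axis). Epithelial-like cells hold 77.4% of Tnf UMIs labelled KO and 30.6% of those labelled WT, and endothelial-like cells hold 67.4% of Csf3 UMIs labelled KO. Shares depend on how many cells, and how many UMIs of all genes, each class holds in a library.

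Among classes with at least 50 cells, the leading class was the same in both libraries for some genes and not for others. For Tnf the order was neutrophil-like (271 CPM), monocyte/macrophage-like (148), mast/basophil-like (72.6) and epithelial-like (58.2) labelled KO, with overlapping intervals for the last pair. In the library labelled WT it was monocyte/macrophage-like (655), mast/basophil-like (317), neutrophil-like (176) and epithelial-like (113), with no overlap between neighbours. For Il6, mast/basophil-like cells (174, mostly in 5 cells) and fibroblast/mural-like cells (142, or 67.4 without the 5 richest cells) led with overlapping intervals in the library labelled KO. In that labelled WT, mast/basophil-like cells (163) stood above monocyte/macrophage-like cells (123).

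For Osm, neutrophil-like cells led monocyte/macrophage-like cells in both libraries, at 584 and 354 CPM labelled KO and 848 and 728 CPM labelled WT. Dendritic-like cells followed in the library labelled WT at 165 CPM, and the 40 such cells labelled KO had 12 Osm UMIs. For Lif, monocyte/macrophage-like (50.5) and fibroblast/mural-like cells (40.8, or 18.5 without the 5 richest cells) overlapped in the library labelled KO, and monocyte/macrophage-like cells (178) led T/NK/ILC-like cells in that labelled WT. For Csf1, neutrophil-like (135), mast/basophil-like (101, mostly in 5 cells) and fibroblast/mural-like cells (76.2) formed a series of overlapping neighbours labelled KO. Neutrophil-like (73.4) and monocyte/macrophage-like cells (62.5) overlapped for Csf1 labelled WT. For Csf3, neutrophil-like (17.1) and monocyte/macrophage-like cells (13.4) overlapped labelled WT, and T/NK/ILC-like cells held 0 UMIs in both libraries. For Il10, T/NK/ILC-like cells led monocyte/macrophage-like cells in both libraries, at 69.6 and 34.5 CPM labelled KO and 105 and 40.6 CPM labelled WT.

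Receptor transcripts of these cytokines were unevenly distributed over the classes. Csf3r, the G-CSF receptor gene, was at 784 CPM in neutrophil-like cells labelled KO and 1198 CPM in those labelled WT, and Csf1r, the M-CSF receptor gene, at 387 and 615 CPM in monocyte/macrophage-like cells. Csf2rb, the shared beta chain of the GM-CSF receptor, was at 306 and 547 CPM in the latter cells and at 694 CPM in dendritic-like cells labelled WT. Of the list of colony stimulating factor receptors with Il34, 1 of 5 measured genes was at least 2-fold lower in monocyte/macrophage-like cells (Csf2rb2, 73.7 against 185 CPM) and none was higher, beside 10.8% and 8.47% of all genes.

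Osmr, Lifr and Il6st, the receptor genes of the gp130 family, were at 152, 64.2 and 215 CPM in fibroblast/mural-like cells labelled KO and at 49.5, 22.9 and 113 CPM in endothelial-like cells. In epithelial-like cells Osmr was at 2.90 against 9.49 CPM, the one lower gene of 12 in the gp130 list beside 13.3% of all genes, and Il6st was at 34.0 against 35.3 CPM. In monocyte/macrophage-like cells, 2 of 11 genes of that list were lower, the kinase genes Jak2 and Pim1, beside 10.8% of all genes, and Socs3, a target of STAT3, was at 578 against 599 CPM. Tnfrsf1a was at 30.1 and 22.9 CPM in epithelial-like cells, and Tnfrsf1b at 15.4 and 31.7 CPM, the one lower gene of 11 in the TNF receptor list, again beside 13.3% of all genes. None of the 11 was lower or higher in monocyte/macrophage-like cells, in which Tnfrsf1b was at 149 and 239 CPM.

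**Figure D5:**
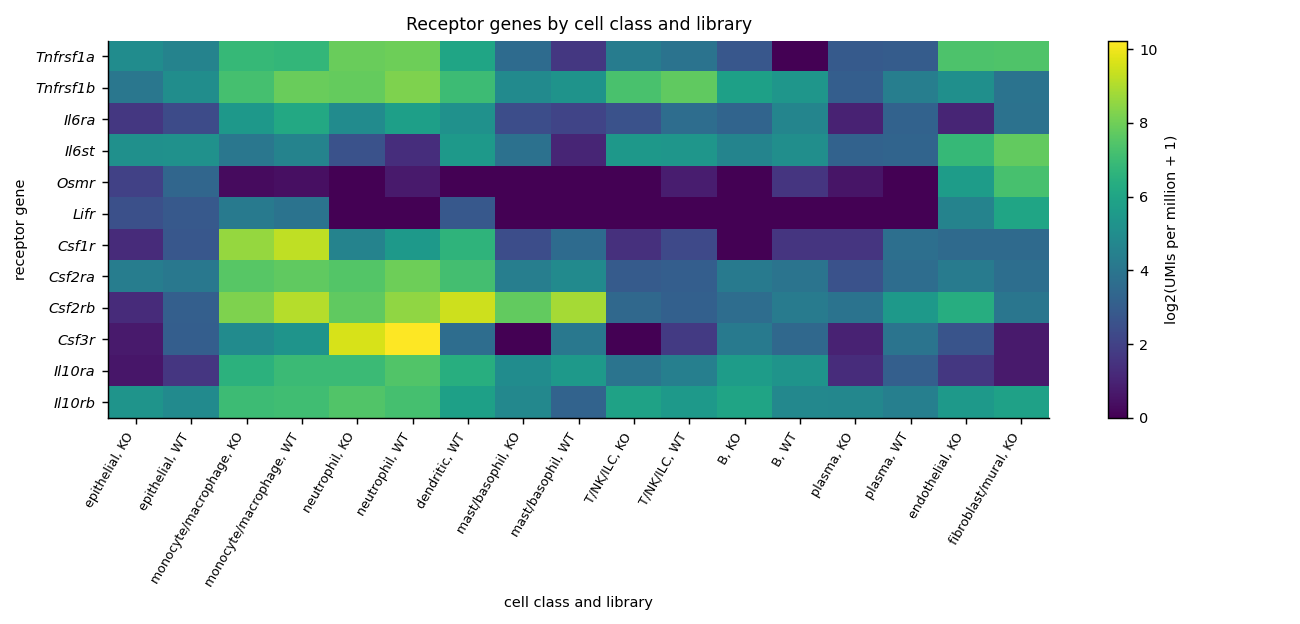
Level of 12 receptor genes (y axis) in each class and library with at least 50 cells (x axis), as log2(CPM + 1) in colour. Csf3r is brightest in neutrophil-like cells, Csf1r in monocyte/macrophage-like cells, and Osmr in fibroblast/mural-like and endothelial-like cells.

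The genes whose profile was most like each member were found by Pearson's r of log2(CPM + 1) over 14 sums, of 7 classes in 2 libraries, among 5663 genes (5664 for Csf2 and Csf3). The points share libraries and depth, and r is a description. Csf2 and Csf3 reached only 39.5 and 17.1 CPM in these sums. Endothelial-like and fibroblast/mural-like cells, which held most Csf3 UMIs labelled KO, were not among the classes. The highest values were with Fnip2 for Tnf (0.94), Ccl2 for Il6 (0.95), Ptgs2 for Osm (0.96), Tnfsf9 for Lif (0.93), Tmem38b for Csf1 (0.95), Sgip1 for Csf2 (0.97), Iscu for Csf3 (0.97) and Ccr2 for Il10 (0.92). Next came Ctsd and Vegfa for Tnf, P2ry14 and Cx3cr1 for Il6, Ccl3 and Nlrp3 for Osm, and Cln8 and Ccdc152 for Lif. For Csf1 they were Fuca2 and Cd244a, for Csf2 Klrc1 and Ifng, for Csf3 Sirpb1c and Mefv, and for Il10 Cd4 and Asb2.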

How the data were processed

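Colon tumour cells of 2 libraries were analysed, 1 labelled KO and 1 labelled WT. Per the file headers, the authors made the deposited matrices of UMI counts with Cell Ranger 7.2.0, and GRCm39 is the build listed per the submitters' processing notes. The labels' protocol describes RNA from lysed tissue, so the capture chemistry is not given in the sources used here. Depth was 75024663 UMIs in 4896 barcodes labelled KO and 59189995 in 9512 labelled WT.

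Cells needed at least 200 genes and at most 20% mitochondrial UMIs. Scrublet in Scanpy 1.11.5 set its own threshold at 2 cells labelled KO, which is under the rate of a working caller, so the highest-scoring 3.51% and 7.12% were removed in the libraries labelled KO and WT (0.8% per 1000 barcodes). Cells were clustered on 2000 variable genes without the 8 members (30 components, 15 neighbours, Leiden resolution 1) into 28 clusters, named from marker lists when at least 3 markers were detected. A minimum naming score of 0.6 and the merging of clusters into classes were chosen after the clusters were seen, and unnamed cells numbered 290 and 335. UMIs were summed per class and library. Intervals (95%) are exact Poisson for CPM, exact conditional binomial for ratios and Clopper-Pearson for shares, and a 0 allows 3 UMIs. They cover counting error only, and no test was possible. The named genes were the 8 members, the genes of 8 pathway lists, and the 3 genes most like each member among those reaching 50 CPM. Members and lists were chosen with earlier results of these data known. The ratio calculation was tested on simulated data.

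Alternatives were no doublet removal, no mitochondrial filter, Leiden resolution 2, equal weight per cell or per cluster (clusters of at least 20 cells in both libraries), totals without mitochondrial and ribosomal transcripts, leaving out the 5 richest cells, cells of at least 1000 UMIs, a minimum of 50 UMIs and a fold of 1.5.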

Additional observations from a re-analysis of the deposited data

Results flagged for a closer look

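For Tnf, Csf1 and Il10, the ratio of the library labelled KO to that labelled WT lay on opposite sides of 1 in different cells, with counting intervals that excluded 1 on each side. Each is a comparison of 1 library with 1 library, and the difference between cell types was not tested. Tnf had ratios of 0.226 in monocyte/macrophage-like, 0.229 in mast/basophil-like, 0.424 in T/NK/ILC-like and 0.513 in epithelial-like cells, and of 1.54 in neutrophil-like cells. By cluster, Tnf was at 0.197 in monocyte-like cluster 9 and 0.307 in macrophage-like cluster 7, and at 2.24 and 1.46 in neutrophil-like clusters 14 and 15. Neutrophil-like cluster 26, with 16 cells labelled KO, went the other way, at 0.377 (0.161 to 0.755). Csf1 had ratios of 0.702 in monocyte/macrophage-like cells, 1.84 in neutrophil-like cells and 2.47 in mast/basophil-like cells, the last of which became 0.318 without the 5 richest cells of each library. By cluster, Csf1 was at 0.612 in cluster 7, 0.402 in cluster 9 and 3.60 in cluster 14. Il10 was at 0.447 in cluster 9 and 1.53 in cluster 7, and the latter became 0.923 without the 5 richest cells.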

How the results depend on the processing

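Over 80 ratios between the libraries, 410 of 430 values under the alternatives stayed on the same side of 1, and of the 38 ratios past 2-fold, 195 of 197 did and 187 stayed past 2-fold. The exceptions in direction were Il10 in epithelial-like cells (1.10 with each cell weighted equally) and Csf1 in mast/basophil-like cells (0.318 without the 5 richest cells). Beside these, 40 ratios lay outside the counting interval without the 5 richest cells, and 38 lay inside it. With each cell weighted equally 18 lay outside, with equal weight per cluster 8, and with no doublet removal 6. The cause was not tested. Only some are listed here: Tnf in monocyte/macrophage-like, neutrophil-like, epithelial-like and mast/basophil-like cells, and Il6, Lif and Osm in monocyte/macrophage-like cells. With equal weight per cluster the ratio was 0.560 for epithelial Tnf, 1.89 for neutrophil Tnf, and 0.256, 0.366 and 0.575 for Il6, Lif and Osm in monocyte/macrophage-like cells. Without the 5 richest cells it was 0.142 for mast/basophil Tnf and 0.192, 0.155 and 0.431 for Tnf, Il6 and Osm in monocyte/macrophage-like cells. With each cell weighted equally it was 0.442 for epithelial Tnf and 0.412 for Osm in monocyte/macrophage-like cells, and with no doublet removal 0.472 and 0.453. The count of 5 lower members in monocyte/macrophage-like cells was 4 with a minimum of 50 UMIs, where Csf2 was not measured, and 5 at 1.5-fold. All 50 shares of cells with a UMI moved on thinning to 1000 UMIs. No paired analysis was possible because each genotype had 1 library. Depth limits statements on genes with few UMIs, such as Csf2 and Csf3.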

Other observations

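Other ligands of the gp130 family and the second ligand of the M-CSF receptor also lay in particular classes. Il11, which encodes interleukin 11, was at 891 CPM (1333 UMIs, 844 to 940) in the 108 fibroblast/mural-like cells labelled KO and at 2714 CPM (262 UMIs, 2395 to 3063) in the 11 labelled WT, and at 0.633 and 0.799 CPM in epithelial-like cells. Il34 was at 146 CPM (219 UMIs) in fibroblast/mural-like cells labelled KO, with 1 UMI in those labelled WT, and at 2.58 and 2.08 CPM in epithelial-like cells. Clcf1 was at 11.5 and 20.9 CPM in monocyte/macrophage-like cells and at 28.3 CPM in T/NK/ILC-like cells labelled WT. The number of fibroblast/mural-like cells labelled WT is too small to set these levels beside each other as a property of the tissue.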
